A study of Mus musculus with 11 samples.

Results

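Transcripts of 46 genes of DNA repair and DNA damage signalling were followed in mouse embryos derived from round spermatid injection, ROSI, or from intracytoplasmic sperm injection, ICSI. They were picked by gene symbol from textbook repair pathways, with earlier results of these data known. All 46 were found among the 49585 genes of the expression table. The groups were 3 libraries of ROSI 2-cell embryos, 3 of ICSI 2-cell embryos, 2 of ROSI zygotes and 3 of ICSI zygotes. All embryos were labelled C57BL/6, with no further allele. In ROSI a round spermatid, an immature haploid germ cell, is injected into the oocyte, and the ROSI embryos were activated with 5 mM SrCl2 for 1 to 2 h in CZB medium without calcium before culture in KSOM. In ICSI a sperm is injected, and the ICSI embryos were cultured in KSOM. Paternal cell and chemical activation were therefore compared together and cannot be told apart. The labels give neither the number of embryos per library nor the hour of collection, and separate cultures are not stated for the replicates. A p-value here therefore measures the spread between the libraries at hand, which may be technical.

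Repair proteins act in pathways that answer different lesions. Broken ends are sensed by the MRE11 complex and the ATM and ATR kinases, and are then joined by homologous recombination or by end joining. Damaged bases are cut out by glycosylases and the gap is closed by base excision repair, replication errors are corrected by mismatch repair, and bulky lesions and crosslinks go to nucleotide excision and the Fanconi anaemia pathway. The fertilised mouse egg starts with repair proteins and mRNAs stored by the oocyte, most maternal mRNA is lost by the 2-cell stage, and the embryo's own genome takes over transcription at that stage. Sperm chromatin arrives packed with protamines, whereas a round spermatid still carries histones.

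Levels are TPM as deposited, a gene's reads per base of annotated exon as a share of its library. Levels of different genes can be set side by side only roughly, since they depend on the exon length used. Means are given with the SD over 3 libraries, or over 2 for ROSI zygotes. Depths recovered from the values were 20.5 to 23.0 M reads in ROSI 2-cell libraries and 8.48 to 32.9 M reads in ICSI 2-cell libraries. In zygotes they were 30.4 and 85.9 M reads after ROSI and 70.7 to 83.0 M reads after ICSI. Differences are of log2(TPM + 1), a scale on which genes with low levels show too small a change. Each has the standard error (SE) of a limma model of all 11 libraries. A gene was called where its adjusted p was under 0.05, over the 21938 genes that reached 1 TPM in 2 or more libraries. Of the 46 repair genes, 45 passed that filter. Tdg, a thymine glycosylase, did not: it lay between 0.0545 and 0.339 TPM, on 3 to 30 reads per library, and its processed copy Tdg-ps is 98.69% identical over 84.75% of the transcript, so its level is uncertain. The zygote libraries differed in small nuclear and nucleolar RNA, which made up 0.611% of TPM in replicate 1 of ROSI and 0.572% in replicate 1 of ICSI, against 1.64% to 2.58% in the other 3 zygote libraries.

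Levels of repair transcripts varied widely from gene to gene in every group. The median of their group means was 9.56 TPM in ROSI 2-cell embryos and 9.91 TPM in ICSI 2-cell embryos. In zygotes it was 20.6 TPM after ROSI and 22.1 TPM after ICSI, and in each group 2 genes averaged under 1 TPM. The group mean reached at least 10 TPM for 22 of the 46 genes in ROSI 2-cell embryos, 22 in ICSI 2-cell embryos, 30 in ROSI zygotes and 31 in ICSI zygotes. At least 100 TPM was reached by 1 gene in ROSI 2-cell embryos, Brca2, and by the same 1 gene in ICSI 2-cell embryos, against 6 genes in ROSI zygotes and 6 in ICSI zygotes. Those 6 were Chek1, Msh6, Rad50, Pcna, Neil3 and Brca2 in both kinds of zygote. The summed level of the 46 genes was 1083 to 1312 TPM in ROSI 2-cell libraries and 1009 to 1216 TPM in ICSI 2-cell libraries, against 1893 to 1953 TPM in ROSI zygotes and 2055 to 2171 TPM in ICSI zygotes. Sums of the 2 stages did not overlap. Because TPM is a share of the RNA of a library, less of these mRNAs per embryo and more of other RNA cannot be told apart, nor can fewer cells of a kind and less RNA per cell.

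**Figure D1:**
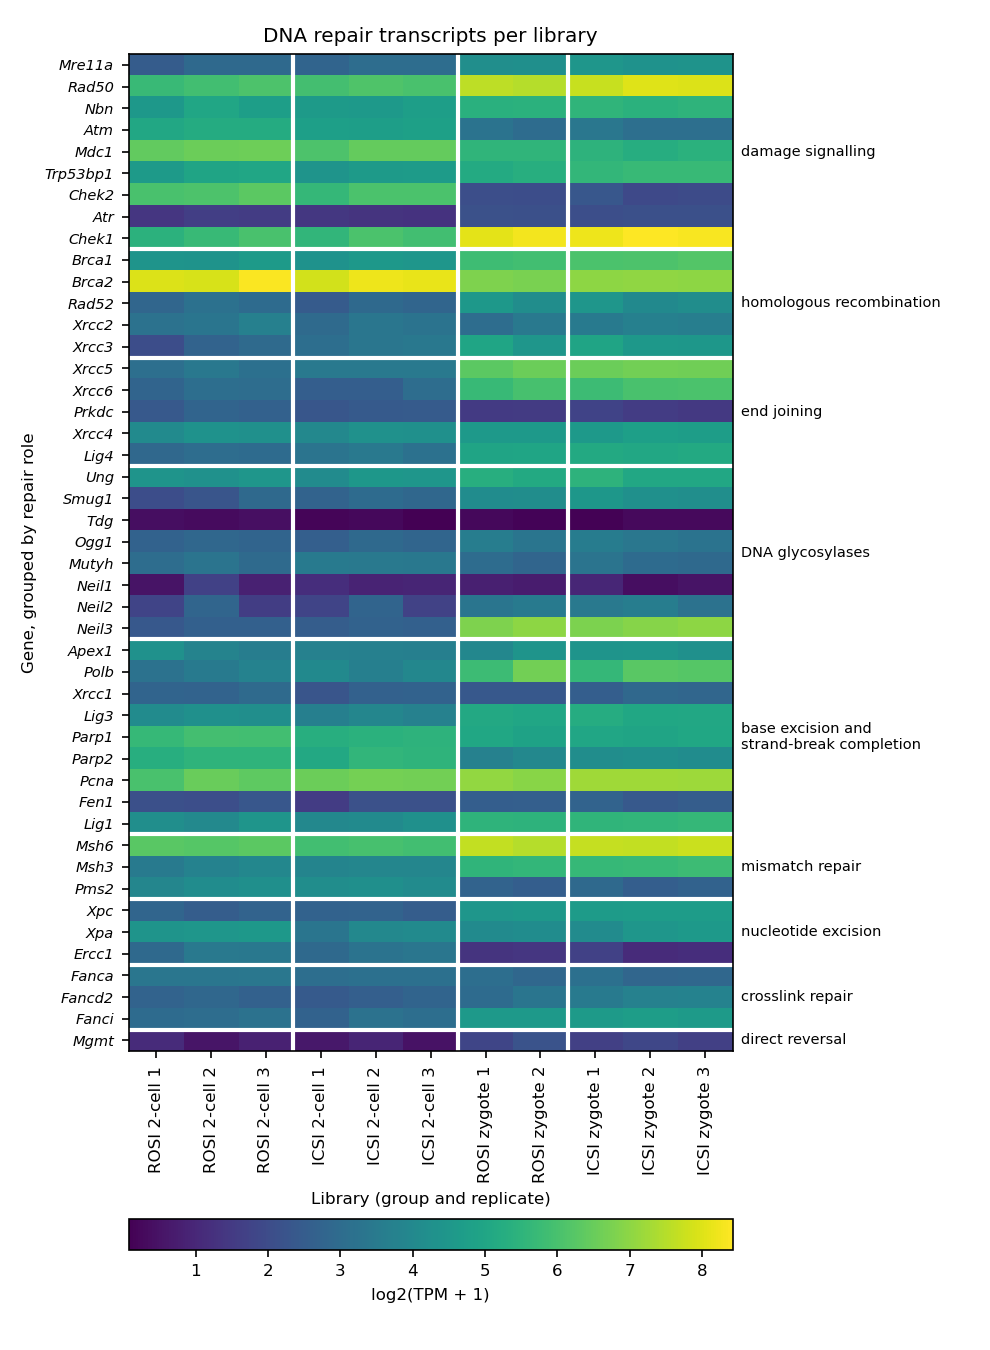
Heat map of the repair genes, grouped by role, in the 11 libraries. Colour gives log2(TPM + 1), so darker or lighter cells compare a gene between libraries. Most genes change colour between the 2-cell and zygote columns, and few do between ROSI and ICSI columns of 1 stage.

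The change of stage moved most repair genes, in the same direction after both injections. After ROSI, 11 of the 45 genes tested were higher at the 2-cell stage than in zygotes and 28 were lower, where 67.9% of all genes tested were called, 35.6% higher and 32.3% lower. After ICSI, 10 were higher and 32 lower, where 68.1% of all genes were called, 33% higher and 35% lower. Libraries of the stages were separate for 41 of the 45 after ROSI, 12 higher and 29 lower, where 76.1% of all genes were separate, 40.2% higher and 35.9% lower. After ICSI they were separate for 42, 10 higher and 32 lower, where 72.2% of all genes were, 34.9% higher and 37.3% lower. The median difference of the 45 genes was -0.68 after ROSI, against 0.19 over all genes tested, and -0.87 after ICSI, against 0.00 over all genes. The share of all genes called rises with level. Among the 12910 genes that passed a filter at 5 TPM, 84% were called after ROSI and 83.9% after ICSI. Medians at that filter were -0.69 for the repair genes and -0.10 for all genes after ROSI, and -0.98 and -0.22 after ICSI. The 2 contrasts share no library, but 1 model of all 11 libraries gave the spread for both, so their calls are not independent. The genes called higher in both were Atm, Mdc1, Chek2, Brca2, Prkdc, Parp1, Parp2, Pms2 and Ercc1, 9 in number. Another 28 were called lower in both, and 0 were called in opposite directions. Xrcc1 and Fanca were called, as higher, after ROSI alone, Mutyh as higher and Xrcc2, Apex1, Fen1 and Xpa as lower after ICSI alone, and Neil1 in neither. A call in 1 contrast and not in the other is no test of a difference between them, which is given further on.

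The balance of higher and lower calls depended on scaling. Protein-coding genes held 44.7% to 51.4% of TPM in 2-cell libraries, against 65.9% to 71.6% in zygotes, and a single small-RNA gene, Gm23935, held 12.7% to 23.7% in 2-cell libraries, against 8.31% to 14.9% in zygotes. With TPM rescaled to protein-coding genes, 14 repair genes were higher and 20 lower after ROSI, and 11 were higher and 25 lower after ICSI. The medians then became -0.27 for the repair genes and 0.50 for all genes after ROSI, and -0.44 and 0.31 after ICSI. Leaving out every gene above 5% of a library gave 14 higher and 22 lower after ROSI. On the protein-coding scale Xrcc4, Neil2, Trp53bp1, Pcna, Nbn, Ogg1, Fancd2 and Atr lost their call after ROSI. After ICSI Xrcc4, Apex1, Fen1, Pcna, Xpa, Xrcc2 and Ogg1 lost theirs on that scale. Under the coding scale 31 of the 39 calls after ROSI and 35 of the 42 after ICSI were shared with those above.

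**Figure D2:**
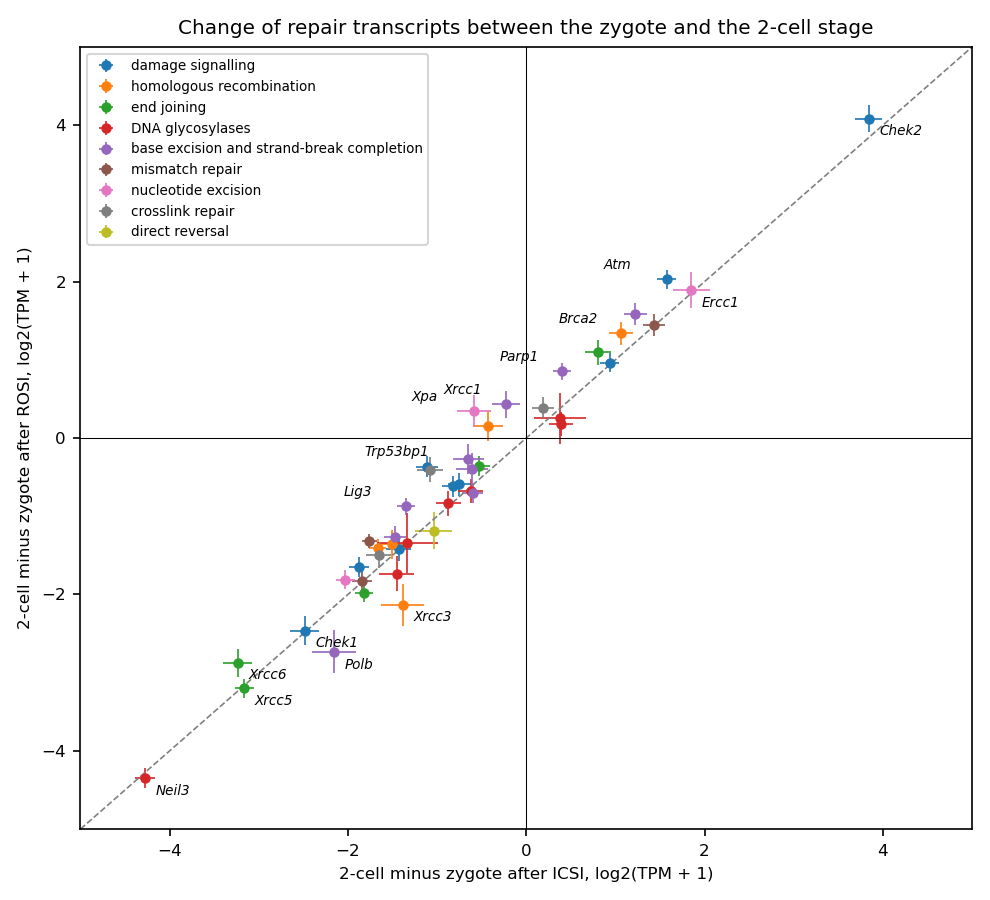
Each point is a repair gene. The x axis gives its log2(TPM + 1) difference of 2-cell embryos minus zygotes after ICSI and the y axis the same after ROSI. Chek2 stands at the upper right, at 3.84 after ICSI and 4.08 after ROSI, and Neil3 at the lower left, at -4.27 after ICSI and -4.35 after ROSI.

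Among the genes of damage signalling, 3 rose and 6 fell after each injection. Chek2, the checkpoint kinase activated by ATM, gave 64.7, 67.9 and 79.1 TPM in ROSI 2-cell libraries and 49.01, 66.1 and 65.3 TPM in ICSI 2-cell libraries. ROSI zygotes had 3.25 and 3.15 TPM and ICSI zygotes 4.12, 2.78 and 2.92 TPM. All 6 of the 2-cell libraries lay far above all 5 zygote libraries, with a difference of 4.08 ± 0.17 log2 (SE, adjusted p = 9.41e-09 by limma) after ROSI and of 3.84 ± 0.16 log2 (SE, adjusted p = 5.14e-09 by limma) after ICSI. Chek1, the kinase activated by ATR, had 42.5, 50.9 and 64.4 TPM in ROSI 2-cell libraries and 46.1, 65.5 and 59.1 TPM in ICSI 2-cell libraries. Its zygote values were 273 and 309 TPM after ROSI and 295, 342 and 322 TPM after ICSI. It moved the other way with no overlap, with a difference of -2.46 ± 0.18 log2 (SE, adjusted p = 5.15e-07 by limma) after ROSI and of -2.48 ± 0.16 log2 (SE, adjusted p = 1.79e-07 by limma) after ICSI. Within a library, Chek2 stood at 1.23 to 1.52 times the TPM of Chek1 in ROSI 2-cell embryos and 1.01 to 1.10 times in ICSI 2-cell embryos, against 0.0102 to 0.0119 times in ROSI zygotes and 0.00812 to 0.0140 times in ICSI zygotes. Such a ratio of TPM, which is per length, does not depend on how libraries are scaled to each other.

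The upstream kinases moved in opposite directions as well. Atm, the kinase that double-strand breaks activate, had 33.0, 36.1 and 35.9 TPM in ROSI 2-cell libraries and 26.6, 25.8 and 27.3 TPM in ICSI 2-cell libraries. Atm in zygotes stood at 8.58 and 7.12 TPM after ROSI and 9.39, 7.68 and 7.76 TPM after ICSI. Every 2-cell library exceeded every zygote library, with a difference of 2.03 ± 0.12 log2 (SE, adjusted p = 1.06e-07 by limma) after ROSI and of 1.57 ± 0.11 log2 (SE, adjusted p = 2.76e-07 by limma) after ICSI. Atr, the kinase recruited to single-stranded DNA, averaged 1.89 ± 0.207 TPM in ROSI 2-cell and 1.55 ± 0.0986 TPM in ICSI 2-cell libraries, against 3.35 ± 0.0971 TPM in ROSI zygote and 3.29 ± 0.0758 TPM in ICSI zygote libraries (SD). It was called lower, with a difference of -0.59 ± 0.15 log2 (SE, adjusted p = 0.00406 by limma) after ROSI and of -0.75 ± 0.13 log2 (SE, adjusted p = 0.000395 by limma) after ICSI, and the ratio of Atm to Atr was 17.6 to 19.9 in ROSI 2-cell libraries and 16.0 to 18.3 in ICSI 2-cell libraries, against 2.17 to 2.51 in ROSI zygotes and 2.31 to 2.92 in ICSI zygotes. The Atr call after ROSI was lost on the coding scale, at -0.29, and without genes above 5% of a library, at -0.37. The size of the Atm to Atr ratio depends on exon length, which was 10338 bases for Atm and 23629 for Atr. Atr also overlaps 1700065D16Rik and Gm16794 on the opposite strand, over 726 and 462 bases. On its own strand it shares 178 bases with Gm24004, a small nuclear RNA gene. Mdc1, the adaptor that binds phosphorylated H2AX beside breaks, averaged 89.9 ± 5.23 TPM in ROSI 2-cell and 79.7 ± 10.6 TPM in ICSI 2-cell libraries, against 45.6 ± 0.176 TPM in ROSI zygote and 40.9 ± 2.57 TPM in ICSI zygote libraries (SD), and rose by 0.96 after ROSI and 0.94 after ICSI (limma adjusted p = 3.38e-05 and 1.61e-05). The genes of the MRE11 complex that holds broken ends were called lower after both injections. Rad50 had 52.7, 58.6 and 67.1 TPM in ROSI 2-cell libraries and 60.6, 68.96 and 64.01 TPM in ICSI 2-cell libraries. The ROSI zygote libraries gave 194 and 181 TPM of Rad50 and the ICSI zygote libraries 210.4, 257 and 253 TPM. All zygote libraries were above all 2-cell libraries, with a difference of -1.65 ± 0.13 log2 (SE, adjusted p = 6.94e-07 by limma) after ROSI and of -1.88 ± 0.11 log2 (SE, adjusted p = 9.13e-08 by limma) after ICSI. Mre11a fell by 1.42 after ROSI and 1.43 after ICSI, and Nbn by 0.62 and 0.83. The Nbn call after ROSI was lost on the coding scale, at -0.15, and without genes above 5% of a library, at -0.27.

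The DNA just before the annotated start of 4 of the genes with large stage differences shows what lies upstream of members that moved in opposite directions. The sequences are RefSeq's, from GRCm38.p6, 250 bases each, given 5′ to 3′ on the strand of the gene. Capitals mark matches, on either strand, to the motifs searched. The E2F-type motif was searched as GCGGGAA, and in its other form as GCGCCAA, and the GC box as the letters GGGCGG. The box that nuclear factor Y binds was searched as CCAAT, the core of a cyclic AMP response element as TGACGT, and the site typical of OTX homeodomain proteins as GGATTA. Chek2 and Atm were higher at the 2-cell stage, Neil3 and Xrcc5 lower. The windows are chr5:110839733-110839982 (plus strand) for Chek2, chr9:53536672-53536921 (minus strand) for Atm, chr8:53639066-53639315 (minus strand) for Neil3 and chr1:72307171-72307420 (plus strand) for Xrcc5.
Chek2: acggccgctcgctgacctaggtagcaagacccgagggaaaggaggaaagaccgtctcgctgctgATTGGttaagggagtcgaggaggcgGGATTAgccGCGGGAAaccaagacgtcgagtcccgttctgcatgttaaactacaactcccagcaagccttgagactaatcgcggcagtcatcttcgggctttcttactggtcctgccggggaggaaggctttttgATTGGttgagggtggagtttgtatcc
Atm: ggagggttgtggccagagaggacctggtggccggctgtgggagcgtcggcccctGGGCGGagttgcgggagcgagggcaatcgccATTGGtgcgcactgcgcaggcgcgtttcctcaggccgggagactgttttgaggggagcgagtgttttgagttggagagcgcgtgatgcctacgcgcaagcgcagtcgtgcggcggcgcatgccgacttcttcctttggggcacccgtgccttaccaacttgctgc
Neil3: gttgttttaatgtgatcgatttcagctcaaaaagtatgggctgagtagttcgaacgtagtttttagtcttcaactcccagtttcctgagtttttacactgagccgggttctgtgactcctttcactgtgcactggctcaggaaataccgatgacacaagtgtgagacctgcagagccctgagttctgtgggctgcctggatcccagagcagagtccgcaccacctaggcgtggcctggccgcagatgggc
Xrcc5: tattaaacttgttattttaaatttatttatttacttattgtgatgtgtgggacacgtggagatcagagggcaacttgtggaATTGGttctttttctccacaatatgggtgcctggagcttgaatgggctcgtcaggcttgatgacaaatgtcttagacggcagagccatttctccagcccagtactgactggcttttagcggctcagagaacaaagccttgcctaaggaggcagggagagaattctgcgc

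The Chek2 window held 1 E2F-type match, 2 CCAAT matches and 1 OTX-type match, that of Atm 1 GC box and 1 CCAAT match, that of Xrcc5 1 CCAAT match and that of Neil3 none of the 5. Promoter windows were found for 38 of the 46 genes, 44 windows in all, and not for Rad50, Nbn, Xrcc2, Prkdc, Neil2, Polb, Xpc and Fancd2. An E2F-type match lay in 8 of the 44 (18.2%), against 5.62% of all 32851 windows, and a GC box in 24 (54.5%), against 32.7%. The CCAAT letters lay in 19 (43.2%), against 33.8%, the TGACGT letters in 7 (15.9%), against 6.47%, and the GGATTA letters in 2 (4.55%), against 6.25%. Repair promoters were also richer in CpG, with a median of 15.5 per window against 6 over all windows, and the matches were not adjusted for that. Among the 8 windows of genes higher after both injections 3 held an E2F-type match, and among the 26 windows of genes lower after both 4 did. The GC box lay in 5 and 16 of these windows, CCAAT in 4 and 8, TGACGT in 3 and 3, and GGATTA in 1 and 0. These splits were not tested.

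Genes of homologous recombination moved in both directions, with 1 rising and 3 falling after ROSI and 1 rising and 4 falling after ICSI. Brca2, which loads the recombinase onto single-stranded DNA, had 253, 242 and 334 TPM in ROSI 2-cell libraries and 228, 298 and 284 TPM in ICSI 2-cell libraries. ROSI zygotes had 109.9 and 105 TPM and ICSI zygotes 127, 129 and 128 TPM. It was the most abundant of the 46 mRNAs at the 2-cell stage in TPM, and all 2-cell libraries lay above all zygote libraries, with a difference of 1.34 ± 0.15 log2 (SE, adjusted p = 1.31e-05 by limma) after ROSI and of 1.06 ± 0.13 log2 (SE, adjusted p = 3.19e-05 by limma) after ICSI. Brca1, which promotes resection and recruits Brca2's partners, averaged 21.1 ± 2.01 TPM in ROSI 2-cell and 20.7 ± 1.36 TPM in ICSI 2-cell libraries, against 57.3 ± 1.17 TPM in ROSI zygote and 67.9 ± 3.37 TPM in ICSI zygote libraries (SD). It fell by 1.40 after ROSI and 1.67 after ICSI, and the ratio of Brca2 to Brca1 was 12.2 to 14.3 in ROSI 2-cell libraries and 11.9 to 13.6 in ICSI 2-cell libraries, against 1.81 to 1.94 in ROSI zygotes and 1.78 to 1.95 in ICSI zygotes. Rad52, an annealing factor, fell by 1.36 after ROSI and 1.5 after ICSI. Xrcc3, a recombinase paralogue, fell by 2.13 after ROSI and 1.38 after ICSI. Xrcc2, another paralogue, averaged 9.82 ± 2.08 TPM in ROSI 2-cell and 8.17 ± 1.28 TPM in ICSI 2-cell libraries, against 8.68 ± 1.94 TPM in ROSI zygote and 11.3 ± 0.935 TPM in ICSI zygote libraries (SD). It was called lower after ICSI, with a difference of -0.43 ± 0.17 log2 (SE, adjusted p = 0.0467 by limma). That call was lost without ICSI zygote replicate 1, 2 or 3, ICSI 2-cell replicate 1 or 3, or ROSI 2-cell replicate 2 (limma adjusted p = 0.0516 to 0.153), and the difference was 0.06 on the coding scale.

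In end joining 4 of 5 genes fell and 1 rose after each injection, and the summed level of the 5 was 39.8 to 49.5 TPM in ROSI 2-cell libraries and 42.1 to 48.0 TPM in ICSI 2-cell libraries, against 184 to 210 TPM in ROSI zygotes and 209 to 224 TPM in ICSI zygotes. Xrcc5, the larger subunit of the Ku ring that caps broken ends, had 7.63, 9.77 and 7.84 TPM in ROSI 2-cell libraries and 9.82, 9.82 and 9.85 TPM in ICSI 2-cell libraries. Its zygote values were 78.8 and 91.6 TPM after ROSI and 93.03, 98.9 and 95.99 TPM after ICSI. Its levels at the 2 stages were far apart, with a difference of -3.20 ± 0.12 log2 (SE, adjusted p = 4.1e-09 by limma) after ROSI and of -3.16 ± 0.11 log2 (SE, adjusted p = 1.56e-09 by limma) after ICSI. Xrcc6, the other Ku subunit, had 5.80, 7.57 and 7.40 TPM in ROSI 2-cell libraries and 4.90, 4.95 and 7.33 TPM in ICSI 2-cell libraries. Xrcc6 in zygotes stood at 51.5 and 62.5 TPM after ROSI and 55.2, 63.9 and 65.9 TPM after ICSI. It fell alike, with a difference of -2.87 ± 0.18 log2 (SE, adjusted p = 1.42e-07 by limma) after ROSI and of -3.24 ± 0.16 log2 (SE, adjusted p = 2.15e-08 by limma) after ICSI. Lig4, the ligase of the pathway, fell by 1.98 after ROSI and 1.82 after ICSI, and its partner Xrcc4 by 0.36 and 0.52. The Xrcc4 call after ROSI was lost without ROSI zygote replicate 1, ROSI zygote replicate 2 or ROSI 2-cell replicate 1 (limma adjusted p = 0.091 to 0.122), and its difference was 0.10 on the coding scale. After ICSI it was -0.02 on that scale and not called. Prkdc, the kinase that Ku recruits, averaged 5.13 ± 0.753 TPM in ROSI 2-cell and 4.30 ± 0.306 TPM in ICSI 2-cell libraries, against 1.85 ± 0.00751 TPM in ROSI zygote and 2.04 ± 0.298 TPM in ICSI zygote libraries (SD), and rose by 1.10 after ROSI and 0.80 after ICSI.

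The glycosylases that find damaged bases fell or were not called, except Mutyh after ICSI. Neil3, which acts on oxidised bases in single-stranded DNA and on crosslinks, had 4.19, 5.26 and 5.18 TPM in ROSI 2-cell libraries and 4.75, 5.55 and 5.24 TPM in ICSI 2-cell libraries. The ROSI zygote libraries gave 111 and 126 TPM of Neil3 and the ICSI zygote libraries 109, 118 and 128 TPM. This was the largest fall among the repair genes after both injections, with a difference of -4.35 ± 0.13 log2 (SE, adjusted p = 1.13e-09 by limma) after ROSI and of -4.27 ± 0.11 log2 (SE, adjusted p = 4.32e-10 by limma) after ICSI, with no overlap between stages. Ung, the uracil glycosylase, averaged 19.9 ± 1.14 TPM in ROSI 2-cell and 19.5 ± 2.99 TPM in ICSI 2-cell libraries, against 36.3 ± 2.97 TPM in ROSI zygote and 36.6 ± 5.98 TPM in ICSI zygote libraries (SD), and fell by 0.83 after ROSI and 0.87 after ICSI. Smug1, another uracil glycosylase, fell by 1.73 after ROSI and 1.45 after ICSI. Ogg1, which removes oxidised guanine, fell by 0.68 after ROSI and 0.62 after ICSI. Both calls were lost on the coding scale, at -0.27 and -0.16, and without genes above 5% of a library, at -0.37 and -0.27. Neil2 fell by 1.34 after ROSI and 1.33 after ICSI, and the call after ROSI was lost without ROSI zygote replicate 2 (limma adjusted p = 0.0527) and on the coding scale, at -1.02. Its 2-cell libraries gave 2.45, 5.94 and 2.01 TPM after ROSI and 2.46, 5.87 and 2.27 TPM after ICSI, highest in replicate 2 of each group. Mutyh, which removes adenine paired with oxidised guanine, averaged 7.64 ± 0.936 TPM in ROSI 2-cell and 9.99 ± 0.391 TPM in ICSI 2-cell libraries, against 6.62 ± 0.826 TPM in ROSI zygote and 7.41 ± 1.12 TPM in ICSI zygote libraries (SD). It gave a difference of 0.18 ± 0.15 log2 (SE, adjusted p = 0.307 by limma) after ROSI and of 0.39 ± 0.13 log2 (SE, adjusted p = 0.0231 by limma) after ICSI, where the call was lost without ICSI zygote replicate 2, ICSI zygote replicate 3 or ICSI 2-cell replicate 1 (limma adjusted p = 0.0559 to 0.0906). Quantile normalization also lost it, at 0.32, and the coding scale called Mutyh higher after both, at 0.63 after ROSI and 0.91 after ICSI. Neil1 averaged 1.15 ± 0.945 TPM in ROSI 2-cell and 1.02 ± 0.216 TPM in ICSI 2-cell libraries, against 0.701 ± 0.0625 TPM in ROSI zygote and 0.569 ± 0.337 TPM in ICSI zygote libraries (SD), on 9 to 46 reads per library, and was not called.

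Among the 9 genes that finish base excision and strand-break repair, the poly(ADP-ribose) polymerases rose. Parp2, which marks strand breaks with poly(ADP-ribose), had 39.1, 44.8 and 43.99 TPM in ROSI 2-cell libraries and 33.97, 46.2 and 44.7 TPM in ICSI 2-cell libraries. ROSI zygotes had 12.4 and 14.7 TPM and ICSI zygotes 16.8, 18.0 and 16.6 TPM. The 2-cell libraries all stood above the zygote libraries, with a difference of 1.59 ± 0.14 log2 (SE, adjusted p = 2.59e-06 by limma) after ROSI and of 1.22 ± 0.13 log2 (SE, adjusted p = 7.98e-06 by limma) after ICSI. Parp1, the main enzyme of that kind, rose by 0.86 after ROSI and 0.40 after ICSI. Polb, the polymerase that fills a short gap, had 8.26, 10.3 and 12.6 TPM in ROSI 2-cell libraries and 15.5, 11.95 and 14.2 TPM in ICSI 2-cell libraries. Its zygote values were 54.6 and 100.1 TPM after ROSI and 48.9, 77.04 and 73.6 TPM after ICSI. All zygote libraries exceeded all 2-cell libraries by a wide gap, with a difference of -2.73 ± 0.27 log2 (SE, adjusted p = 5.74e-06 by limma) after ROSI and of -2.16 ± 0.24 log2 (SE, adjusted p = 1.45e-05 by limma) after ICSI. Pcna, the sliding clamp of replication and gap filling, had 64.9, 90.96 and 80.6 TPM in ROSI 2-cell libraries and 92.3, 101 and 99.4 TPM in ICSI 2-cell libraries. Pcna in zygotes stood at 135 and 121 TPM after ROSI and 149.7, 150.4 and 145 TPM after ICSI. It fell with no overlap, with a difference of -0.70 ± 0.13 log2 (SE, adjusted p = 0.000636 by limma) after ROSI and of -0.60 ± 0.12 log2 (SE, adjusted p = 0.000826 by limma) after ICSI, and a copy that can share its reads, Pcna-ps2, is 99.23% identical over 51.45% of its transcript and averaged 2.61 TPM. On the coding scale Pcna was not called, at -0.23 after ROSI and -0.07 after ICSI, and after ICSI it was not called either under quantile normalization, at -0.07, or without genes above 5% of a library, at -0.19. Lig1, the replicative ligase, fell by 1.26 after ROSI and 1.48 after ICSI, and Lig3, the ligase of the Xrcc1 complex, by 0.87 and 1.35. Xrcc1, the scaffold that holds Lig3 and Polb, averaged 6.06 ± 0.653 TPM in ROSI 2-cell and 4.90 ± 0.950 TPM in ICSI 2-cell libraries, against 4.22 ± 0.00267 TPM in ROSI zygote and 5.86 ± 0.822 TPM in ICSI zygote libraries (SD). Its rise of 0.43 after ROSI lost its call without any 1 of 8 libraries, which were all ROSI libraries, ICSI 2-cell replicate 2 and ICSI zygote replicates 2 and 3 (limma adjusted p = 0.0526 to 0.139), and under quantile normalization, at 0.05. Apex1, the endonuclease that cuts abasic sites, and Fen1, the flap nuclease, were called lower after ICSI, by 0.65 and 0.61, and gave -0.27 and -0.40 after ROSI, not called. Both calls after ICSI were lost on the coding scale, at -0.15 and -0.21, and without genes above 5% of a library, at -0.26 and -0.31, and that of Apex1 under quantile normalization, at -0.53. After ROSI Apex1 turned to 0.19 on the coding scale, while Fen1 was called lower with median-ratio scaling, at -0.42, and quantile normalization, at -0.84. On the opposite strand, Apex1 shares 877 bases with Pip4p1 and Fen1 1909 bases with Gm10143, and the strand setting of the counting is not given in the sources used here, so reads of such pairs may not have been told apart.

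Mismatch, nucleotide excision and crosslink repair each held genes that moved in both directions after ROSI. Pms2, a subunit of the mismatch endonuclease, had 14.1, 16.5 and 17.8 TPM in ROSI 2-cell libraries and 16.9, 17.6 and 16.1 TPM in ICSI 2-cell libraries. The ROSI zygote libraries gave 5.63 and 4.96 TPM of Pms2 and the ICSI zygote libraries 6.57, 4.96 and 5.44 TPM. It rose, with a difference of 1.44 ± 0.14 log2 (SE, adjusted p = 5.3e-06 by limma) after ROSI and of 1.43 ± 0.13 log2 (SE, adjusted p = 2.1e-06 by limma) after ICSI, with no overlap between stages. Pms2 shares 394 bases with Gm42421 and 85 with Rsph10b on the same strand, where reads may not have been told apart. The mismatch sensors fell, Msh6 by 1.31 after ROSI and 1.76 after ICSI, and Msh3 by 1.83 and 1.84. Ercc1, which with a partner nuclease cuts the strand beside a bulky lesion, had 6.65, 9.82 and 9.64 TPM in ROSI 2-cell libraries and 6.54, 8.49 and 9.25 TPM in ICSI 2-cell libraries. ROSI zygotes had 1.54 and 1.62 TPM and ICSI zygotes 2.25, 1.14 and 1.25 TPM. Its 2-cell libraries all exceeded its zygote libraries, with a difference of 1.89 ± 0.23 log2 (SE, adjusted p = 2.77e-05 by limma) after ROSI and of 1.85 ± 0.21 log2 (SE, adjusted p = 1.29e-05 by limma) after ICSI. Xpc, the sensor of helix distortion, fell by 1.81 after ROSI and 2.03 after ICSI. Fanci, a subunit of the clamp that marks crosslinks, had 6.92, 7.42 and 8.28 TPM in ROSI 2-cell libraries and 5.44, 8.43 and 7.61 TPM in ICSI 2-cell libraries. Its zygote values were 22.98 and 23.3 TPM after ROSI and 23.8, 25.4 and 23.8 TPM after ICSI. It fell at the 2-cell stage, with a difference of -1.50 ± 0.16 log2 (SE, adjusted p = 8.35e-06 by limma) after ROSI and of -1.65 ± 0.14 log2 (SE, adjusted p = 1.44e-06 by limma) after ICSI, and overlaps Polg on the opposite strand over 921 bases. Fanca, a core-complex subunit that overlaps Zfp276 on the opposite strand over 920 bases, rose by 0.39 after ROSI and gave 0.19 after ICSI, not called, and without ROSI zygote replicate 2 the difference after ROSI was 0.28 (limma adjusted p = 0.193). Quantile normalization gave 0.18 after ROSI, not called, and the coding scale called Fanca higher after ICSI, at 0.69. Mgmt, which removes a methyl group from guanine directly, had 1.15, 0.456 and 0.797 TPM in ROSI 2-cell libraries and 0.547, 0.922 and 0.405 TPM in ICSI 2-cell libraries. Mgmt in zygotes stood at 2.51 and 3.67 TPM after ROSI and 2.16, 2.62 and 2.17 TPM after ICSI. On 6 to 311 reads per library, it was lower at the 2-cell stage, with a difference of -1.19 ± 0.23 log2 (SE, adjusted p = 0.000986 by limma) after ROSI and of -1.04 ± 0.21 log2 (SE, adjusted p = 0.0011 by limma) after ICSI.

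Other repair genes, 105 tested of a list of textbook names, gave 31 higher and 54 lower at the 2-cell stage after ROSI and 29 higher and 58 lower after ICSI. These are 81% and 82.9% of the 105, where 67.9% and 68.1% of all genes tested were called. With the filter at 5 TPM the shares of all genes were 84% and 83.9%, so these shares are no excess over well expressed genes. The list was drawn up with earlier results of these data known. Polq, the polymerase of alternative end joining, rose by 3.80 log2 after ROSI and 3.36 after ICSI, Rad9a, a checkpoint clamp subunit, by 3.42 and 3.58, and Polh, a translesion polymerase, by 3.41 and 3.63. Nthl1, a glycosylase for oxidised pyrimidines, fell by 3.72 after ROSI and 3.81 after ICSI, and Tdp1, which frees topoisomerase from DNA ends, by 3.36 and 3.16. Timeless, a fork protection factor, was lower at -3.17 after ROSI and -2.90 after ICSI, Pms1, a mismatch repair protein, at -3.03 and -3.24, and Poli, a translesion polymerase, at -2.56 and -3.21. Stored and newly made transcripts also moved in these libraries. The sum of 10 oocyte transcripts was 959.9 to 1165 TPM in ROSI 2-cell and 1525 to 1542 TPM in ICSI 2-cell libraries, against 5879 to 6710 TPM in ROSI zygotes and 7107 to 8187 TPM in ICSI zygotes, with all 10 above 1 TPM in every library. The sum of 10 genes of 2-cell activation was 533 to 730 TPM in ROSI 2-cell and 981 to 1017 TPM in ICSI 2-cell libraries, against 79.3 to 89.1 TPM in ROSI zygotes and 84.1 to 114 TPM in ICSI zygotes, where 7 of the 10 were above 1 TPM and Tdpoz4 was at 0. Their part in the repair genes' stage differences was not tested.

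Between injections, 3 repair genes passed at the 2-cell stage, all higher after ROSI. That is 6.67% of the 45, where 9.51% of all genes tested were called, 4.93% higher and 4.58% lower. With so few genes called, the share is not told apart from that of all genes. Quantile normalization called 8 repair genes and 14.9% of all genes, and the coding scale 6 repair genes and 11.5% of all genes. At an unadjusted p under 0.05 there were 11 repair genes and 5857 of all genes. For 12 of the 45, 7 higher and 5 lower after ROSI, the ranges of the 2 groups were apart. This held for 27.3% of all genes, 15.4% higher and 11.8% lower. The median difference was 0.08, against 0.04 over all genes.

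The 3 genes were Parp1, Lig3 and Msh6. Parp1, which binds strand breaks and recruits the Xrcc1 and Lig3 complex, had 49.4, 59.7 and 58.5 TPM in ROSI 2-cell libraries, against 38.8, 41.9 and 43.3 TPM in ICSI 2-cell libraries, and in zygotes it had 32.2 and 28.6 TPM in ROSI zygote libraries, against 31.1, 30.1 and 32.1 TPM in ICSI zygote libraries. The lowest ROSI 2-cell library lay above the highest ICSI one, with a difference of 0.42 ± 0.10 log2 (SE, adjusted p = 0.0266 by limma), whereas the zygote groups overlapped. Lig3, which seals nicks with Xrcc1, had 16.1, 18.3 and 17.3 TPM in ROSI 2-cell libraries, against 11.7, 13.8 and 12.4 TPM in ICSI 2-cell libraries, and in zygotes it had 33.7 and 31.1 TPM in ROSI zygote libraries, against 36.7, 31.9 and 32.98 TPM in ICSI zygote libraries. The 2-cell groups did not overlap, with a difference of 0.42 ± 0.10 log2 (SE, adjusted p = 0.0314 by limma), and the zygote groups did. Lig3 shares 1826 bases with Rffl on the opposite strand, and Rffl itself had 13.28, 17.79 and 17.48 TPM in ROSI 2-cell libraries and 12.71, 12.99 and 14.23 TPM in ICSI 2-cell libraries. Msh6, the mismatch sensor for single bases, had 76.5, 73.8 and 78.3 TPM in ROSI 2-cell libraries, against 59.2, 63.4 and 59.1 TPM in ICSI 2-cell libraries, and in zygotes it had 203 and 179 TPM in ROSI zygote libraries, against 205, 200.2 and 217 TPM in ICSI zygote libraries. Its processed copy Gm11855, 94.12% identical over 44.04% of the transcript, averaged 0.5 TPM. Msh6 too was separate at the 2-cell stage, with a difference of 0.33 ± 0.08 log2 (SE, adjusted p = 0.0319 by limma), and overlapping in zygotes. The ratio of Msh6 to Msh3 was 5.48 to 7.44 in ROSI 2-cell libraries and 4.26 to 4.51 in ICSI 2-cell libraries. The oocyte sum and the sum of activation genes were both lower in ROSI than in ICSI 2-cell libraries, as given above, and their part in these differences was not tested.

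These 3 calls were close to the threshold. The Parp1 call was lost without ROSI 2-cell replicate 2 (limma adjusted p = 0.0891) or replicate 3 (0.0548), and without ICSI 2-cell replicate 1 (0.0746) or replicate 2 (0.0628). The Lig3 call was lost without ROSI 2-cell replicate 2 (0.0969) or replicate 3 (0.0525), ICSI 2-cell replicate 1 (0.0814) or replicate 3 (0.0686), and ICSI zygote replicate 2 (0.0516) or replicate 3 (0.0555). The Msh6 call was lost without any 1 of the 6 libraries of 2-cell embryos, with limma adjusted p from 0.0545 to 0.0769, and without ICSI zygote replicate 2 (0.0551) or replicate 3 (0.0521). The log2 differences stayed between 0.31 and 0.43 across those omissions. Msh6 was also not called with median-ratio scaling (0.26, limma adjusted p = 0.0513), where Xpa passed, or with array weights (0.31, limma adjusted p = 0.0552). None of the 3 passed without the variance trend or with the 2 groups fitted alone (limma adjusted p = 0.0577 to 0.129).

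**Figure D3:**
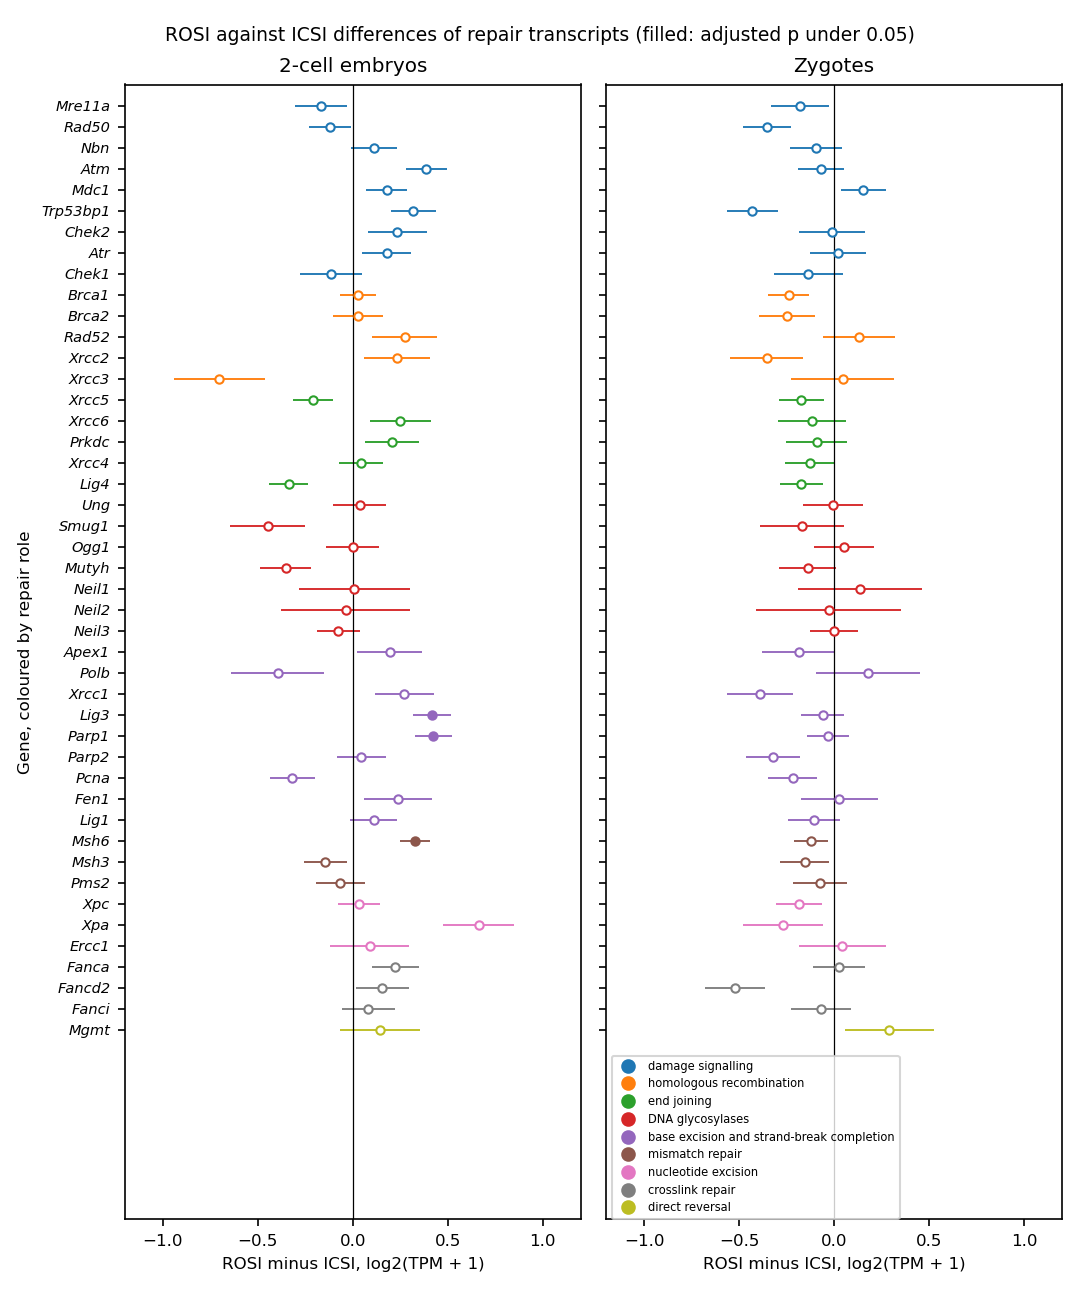
Each point is a repair gene, with its log2(TPM + 1) difference of ROSI minus ICSI embryos at the 2-cell stage and in zygotes. Horizontal bars are standard errors of the limma model, and filled points are genes that passed. Parp1, Lig3 and Msh6 pass at the 2-cell stage and 0 genes pass in zygotes.

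The promoter windows of these 3 genes are shown for their common direction after ROSI, from the same source and with the same capitals, at chr1:180568641-180568890 (plus strand) for Parp1, chr11:82780859-82781108 (plus strand) for Lig3 and chr17:87974800-87975049 (plus strand) for Msh6.
Parp1: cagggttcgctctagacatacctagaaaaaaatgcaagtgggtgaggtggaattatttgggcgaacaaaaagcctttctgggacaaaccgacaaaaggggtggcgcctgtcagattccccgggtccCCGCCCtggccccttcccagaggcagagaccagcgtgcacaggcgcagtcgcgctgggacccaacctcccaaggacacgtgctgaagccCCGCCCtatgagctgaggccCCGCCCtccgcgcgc
Lig3: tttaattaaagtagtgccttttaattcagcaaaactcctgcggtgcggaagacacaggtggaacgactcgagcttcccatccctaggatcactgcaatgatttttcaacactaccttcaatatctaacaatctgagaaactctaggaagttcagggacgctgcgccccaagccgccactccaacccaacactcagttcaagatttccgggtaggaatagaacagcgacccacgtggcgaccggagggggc
Msh6: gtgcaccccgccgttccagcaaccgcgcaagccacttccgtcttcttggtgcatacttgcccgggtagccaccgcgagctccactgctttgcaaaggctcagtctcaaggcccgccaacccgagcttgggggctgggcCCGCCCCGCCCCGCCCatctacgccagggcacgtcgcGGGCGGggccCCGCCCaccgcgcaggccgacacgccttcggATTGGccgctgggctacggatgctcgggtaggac
The Parp1 window held 3 GC boxes, that of Msh6 5 GC boxes and 1 CCAAT match, and that of Lig3 none of the motifs searched, so no motif was common to all of them.

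Several genes came near the threshold at the 2-cell stage. Xpa, the scaffold of nucleotide excision repair, had 19.9, 20.8 and 21.8 TPM in ROSI 2-cell libraries and 9.06, 14.6 and 15.7 TPM in ICSI 2-cell libraries. The ROSI zygote libraries gave 15.8 and 16.6 TPM of Xpa and the ICSI zygote libraries 16.1, 21.03 and 22.5 TPM. Its ROSI 2-cell libraries lay above all ICSI 2-cell libraries, with a difference of 0.66 ± 0.19 log2 (SE, adjusted p = 0.0513 by limma), which did not pass. Atm gave a difference of 0.39 ± 0.11 log2 (SE, adjusted p = 0.0516 by limma), with the 3 ROSI libraries above the 3 ICSI libraries. Lig4 gave a difference of -0.34 ± 0.10 log2 (SE, adjusted p = 0.0622 by limma), Xrcc3 a difference of -0.70 ± 0.24 log2 (SE, adjusted p = 0.0936 by limma) and Pcna a difference of -0.32 ± 0.12 log2 (SE, adjusted p = 0.111 by limma), each with the ROSI libraries below the ICSI libraries and not called. Lig4 and Xrcc3 were called lower with median-ratio scaling, at -0.40 and -0.77, and with quantile normalization, at -0.44 and -0.86. Pcna was called lower with median-ratio scaling. Quantile normalization also called Xpa, Atm and Trp53bp1 higher, and median-ratio scaling Xpa. Of the other repair genes, 3 of 105 were called and all were higher after ROSI. Gtf2h2, a subunit of the repair and transcription factor that opens DNA, averaged 8.03 TPM after ROSI and 5.23 TPM after ICSI (0.53 ± 0.13 on the log2 scale, adjusted p = 0.0346 by limma), and Gtf2h1, another of its subunits, 134 TPM after ROSI and 99.8 TPM after ICSI (0.41 ± 0.10 on the log2 scale, adjusted p = 0.0364 by limma).

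In zygotes, 0 of the 45 repair genes passed in ROSI against ICSI with limma, where 0.146% of all genes did, 0.114% higher and 0.0319% lower. At an unadjusted p under 0.05 there were 6 repair genes and 1392 of all genes. The difference was below 0 for 33 of the 45, against 62.4% of all genes, and the median was -0.11 against -0.06. Under the 4 other scalings the median of all genes was 0.00 and that of the repair genes lay between -0.03 and -0.01. Libraries did not overlap for 20 genes, 1 higher (Mdc1) and 19 lower after ROSI, where 26.4% of all genes were separate, 6.97% higher and 19.4% lower. In replicate 1 of each group, where small nuclear RNA was scarce, the median was -0.15 for the repair genes and -0.08 for all genes. Replicate 2 of ROSI against replicates 2 and 3 of ICSI gave -0.08 for the repair genes and -0.06 for all genes.

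The 3 genes with the smallest p in zygotes were Fancd2, Trp53bp1 and Rad50. Fancd2, the partner of Fanci in the crosslink clamp, had 7.0 and 9.02 TPM in ROSI zygote libraries, against 10.3, 12.5 and 12.8 TPM in ICSI zygote libraries, and at the 2-cell stage it had 5.63, 6.28 and 5.41 TPM in ROSI 2-cell libraries, against 4.46, 5.03 and 5.81 TPM in ICSI 2-cell libraries. Both ROSI zygote libraries lay below the ICSI ones, with a difference of -0.52 ± 0.16 log2 (SE, adjusted p = 0.376 by limma). Trp53bp1, a chromatin reader that favours end joining, had 35.3 and 38.4 TPM in ROSI zygote libraries, against 47.9, 50.9 and 51.3 TPM in ICSI zygote libraries, and at the 2-cell stage it had 23.9, 30.1 and 31.7 TPM in ROSI 2-cell libraries, against 20.04, 23.8 and 24.1 TPM in ICSI 2-cell libraries. The zygote groups were separate here too, with a difference of -0.43 ± 0.13 log2 (SE, adjusted p = 0.393 by limma). Rad50, whose values stand with the signalling genes above, gave a difference of -0.35 ± 0.13 log2 (SE, adjusted p = 0.563 by limma), with both ROSI libraries below all ICSI libraries. In replicate 1 of each group the differences were -0.50 for Fancd2, -0.43 for Trp53bp1 and -0.12 for Rad50, and in the other zygote libraries -0.45, -0.40 and -0.49. Trp53bp1 overlaps Tubgcp4 on the opposite strand over 2130 bases. The spermatid sum of 12 genes was 93.5 and 183 TPM in the 2 ROSI zygote libraries, with 11 of the 12 above 1 TPM, against 26.9 to 33.0 TPM in ICSI zygotes, with 4 to 5 above 1 TPM and Smcp at 0. It was 40.9 to 58.8 TPM in ROSI and 10.6 to 15.3 TPM in ICSI 2-cell libraries, and the sum of 12 cumulus cell genes stayed at 5.13 to 8.65 TPM in 2-cell libraries and 12.03 to 16.6 TPM in zygotes, with 1 to 3 genes above 1 TPM and Amh at 0 in zygotes. A list of 10 genes of other testis cells, some of which oocytes also express, summed to 236 to 274 TPM in ROSI and 193 to 205 TPM in ICSI 2-cell libraries, and to 503 to 549 TPM in ROSI and 564 to 597 TPM in ICSI zygotes, with 5 to 7 genes above 1 TPM. Their part in the repair genes' differences was not tested.

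**Figure D4:**
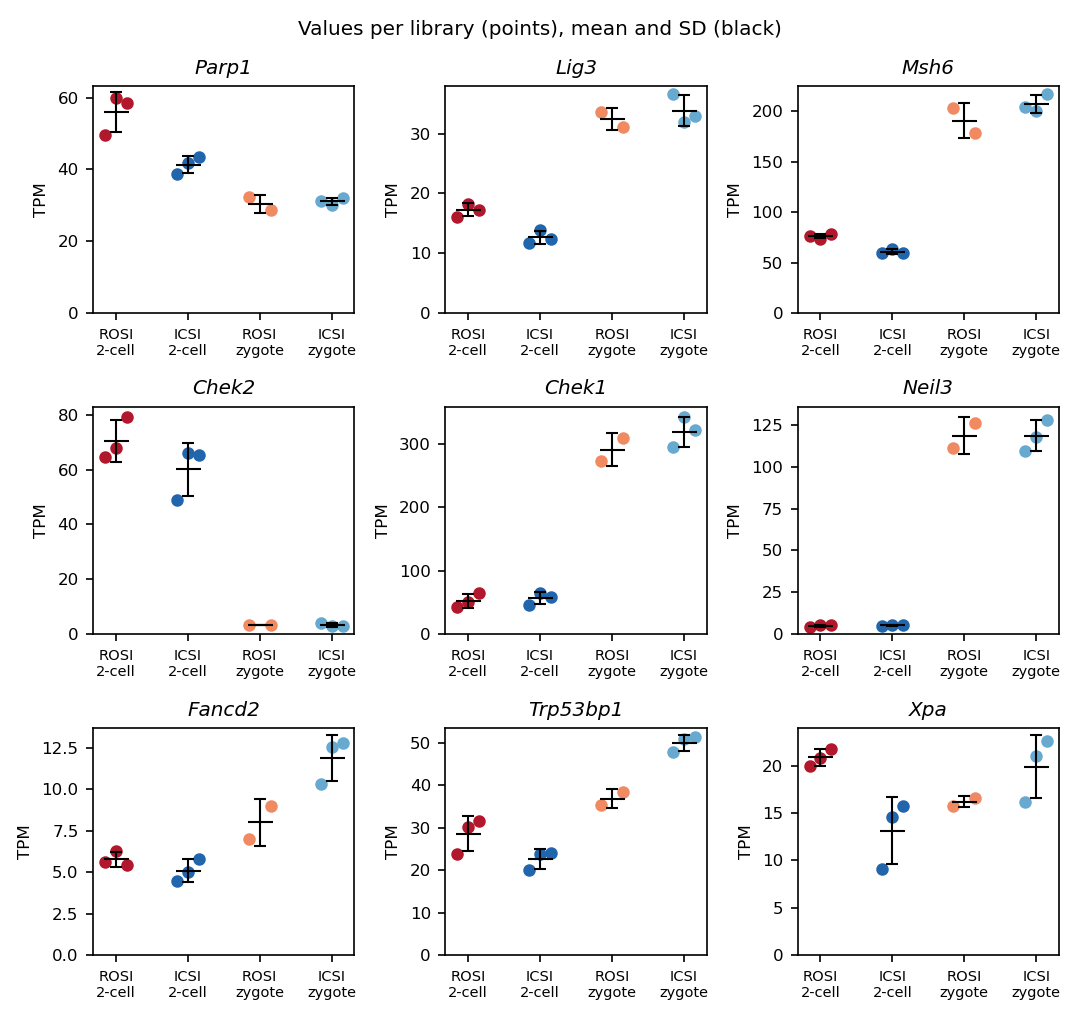
TPM of 9 repair genes in each library, on a linear axis from 0, 1 panel per gene, with points for libraries and black marks for the mean and SD of a group. Parp1, Lig3 and Msh6 show separate ROSI and ICSI points at the 2-cell stage, and Chek2, Chek1 and Neil3 show separate stages.

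The difference between the stage changes of ROSI and ICSI was tested directly, and 0 of the 45 repair genes passed with limma, where 0.0182% of all genes did, 0.0137% higher and 0.00456% lower. At an unadjusted p under 0.05 there were 9 repair genes and 3303 of all genes, and the median was 0.17 against 0.10 over all genes. The smallest p-values were those of Trp53bp1, Msh6 and Xpa. Trp53bp1 fell by 0.37 after ROSI and by 1.11 after ICSI. The difference between these changes, 0.75 ± 0.18 log2 (SE, adjusted p = 0.117 by limma), did not pass. The call after ROSI was lost without ROSI zygote replicate 1, ROSI zygote replicate 2 or ROSI 2-cell replicate 1 (limma adjusted p = 0.0612 to 0.163). The change after ROSI was 0.10 on the coding scale. It was not called either with quantile normalization, at -0.19, or without genes above 5% of a library, at -0.01. Msh6 gave a difference of 0.45 ± 0.12 log2 (SE, adjusted p = 0.138 by limma). Xpa, with a difference of 0.35 ± 0.21 log2 (SE, adjusted p = 0.165 by limma) after ROSI and of -0.59 ± 0.19 log2 (SE, adjusted p = 0.0165 by limma) after ICSI, gave a difference of 0.93 ± 0.28 log2 (SE, adjusted p = 0.17 by limma), and its ICSI call was lost without ICSI zygote replicate 2 or replicate 3 (limma adjusted p = 0.0538 and 0.0658). On the coding scale Xpa was called higher after ROSI, at 0.82, and not called after ICSI, at -0.09. Fancd2, called lower after ROSI by 0.40 and after ICSI by 1.08, gave 0.01 after ROSI on the coding scale. Its call after ROSI was lost without ROSI zygote replicate 2 (limma adjusted p = 0.31), and without ROSI 2-cell replicate 1 or 3, ICSI zygote replicate 2 or 3, or ICSI 2-cell replicate 2 (0.0527 to 0.0931).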

How the data were processed

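The submitters sequenced total RNA of mouse embryos and, per the labels' protocols, made stranded SMART-seq libraries from it. The submitters' processing notes name fastp, Bowtie2, STAR 2.7.4a, featureCounts and mm10, and their roles, the annotation, the strand setting and the filters are not given in the sources used here. The authors deposited TPM, 1 column per library, in a table of 49585 genes. TPM were used as deposited, on the log2(TPM + 1) scale, and were not counts. Reads were recovered by multiplying TPM by GENCODE M21 exon length, and 87.9% to 90.7% of values lay within 0.01 of a whole number. Of the 46 repair genes, 42 lay within 0.05 of a whole number in every library, and Smug1, Neil2, Parp2 and Msh6 did not. The recovered reads describe depth and support no count test.

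One limma 3.58.1 model in R 4.3.3 (eBayes with a variance trend) fitted 4 group means to 11 libraries, and p-values were adjusted by Benjamini-Hochberg over the 21938 genes that reached 1 TPM in 2 or more libraries. The code was tested on simulated data. Tables and figures used python 3.11.15, pandas 2.3.3, numpy 2.4.6 and matplotlib 3.10.9, and copies were searched with blastn 2.17.0 at 90% identity or more over at least 20% of a transcript. The members and lists were chosen with earlier results of these data known. Every gene that passed between ROSI and ICSI, or the 3 with the smallest p where under 3 passed, the most abundant gene of each role and the 4 largest stage differences per direction are given by library. A gene that the naming rule picked among the other repair genes is not reported here. The alternatives tried were other pseudocounts, filters, scalings, a fit without the variance trend, array weights, a block for replicate number, leaving out each library, and fitting the 2 groups alone. Protein-coding rescaling was added after seeing the data.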

Additional observations from a re-analysis of the deposited data

Results flagged for a closer look

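Xrcc1 stood apart because its ROSI and ICSI libraries were separate at both stages in opposite directions. It had 5.79, 5.59 and 6.81 TPM in ROSI 2-cell libraries, against 3.80, 5.35 and 5.54 TPM in ICSI 2-cell libraries, where ROSI was higher, and 4.22 and 4.21 TPM in ROSI zygote libraries, against 4.93, 6.49 and 6.16 TPM in ICSI zygote libraries, where ROSI was lower. The limma difference of the 2 contrasts was 0.66 (SE 0.23), with an adjusted p of 0.232, so it did not pass. At the 2-cell stage the gap between groups was narrow, 5.59 against 5.54 TPM, and Xrcc1 was not called (limma adjusted p = 0.301). Of all genes tested, 27.3% were separate at the 2-cell stage and 26.4% in zygotes. The share separate in opposite directions was not computed.

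Xpa stood apart because its 2-cell libraries were all above the zygote libraries after ROSI and all below them after ICSI. The limma difference of the 2 stage changes was 0.93 (SE 0.28), with an adjusted p of 0.17, so it did not pass. Of all genes tested, 76.1% had separate stages after ROSI and 72.2% after ICSI, and the share in opposite directions was not computed. ICSI 2-cell replicate 1, the library with the fewest reads, had the lowest Xpa level, 9.06 TPM. Groups of 2 and 3 libraries are too small for a search for single outlying libraries.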

How the results depend on the processing

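Repair genes called between ROSI and ICSI depended on the settings at the 2-cell stage. Against 3 higher and 0 lower there, a pseudocount of 5 gave 5 higher, and a filter at 5 TPM gave 5 higher and 1 lower (Lig4). Median-ratio scaling gave 3 higher and 3 lower (Msh6 lost, Xpa gained as higher, and Xrcc3, Pcna and Lig4 gained as lower). Quantile normalization gave 6 higher and 2 lower (Xrcc3 and Lig4). Leaving out genes above 5% of a library gave 6 higher and the coding scale gave 6 higher. A fit without the variance trend, and the 2 groups fitted alone, gave 0 higher each. Leaving out 1 library gave 0 to 5 higher and 0 to 1 lower. Array weights left 2 higher, with Msh6 lost. With limma array weights 1 gene, Trp53bp1, passed as lower in ROSI zygotes (adjusted p = 0.0446) and 1, the same gene, in the difference of stage changes (adjusted p = 0.043). The cause was not tested. Counts of stage calls stayed within 1.5 times, at 9 to 12 higher and 24 to 29 lower after ROSI, and 9 to 10 higher and 30 to 32 lower after ICSI, with 1 library left out. Of the 25 differences that ranked first in their contrast, none changed sign in any setting run. Among the other called stage differences, those of Trp53bp1, Xrcc4 and Fancd2 after ROSI and of Xrcc2 after ICSI changed sign on the coding scale, as did some that were not called, such as Apex1 after ROSI. Over those 25 differences, 543 values kept their side of the threshold, 27 lost it and 2 gained it.

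Same-numbered ROSI and ICSI zygote libraries shared some deviation from their group means, at correlations of 0.33 and 0.215. Between all other groups same-numbered libraries correlated at -0.043 to 0.057. The main model did not use replicate numbers. With the replicate number as a block, 4 of all 21938 genes tested were called between ROSI and ICSI zygotes, against 32 in the main model. Of the repair genes, 3 were then higher at the 2-cell stage after ROSI, with Lig3 lost (limma adjusted p = 0.0558) and Xpa gained. None were called in zygotes or in the difference of changes. The block gave 10 higher and 28 lower stage calls after ROSI and 10 and 32 after ICSI. The fit of 2 groups alone was not run for the difference of changes. Depth limits Tdg, Neil1 and Mgmt most.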
